A study of Rattus norvegicus with 8 samples.

Results

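The complement and coagulation genes of the rat liver were followed here through 8 microarrays, 4 from high-fat livers and 4 from control livers. The members were all non-control probes whose gene name was one of 39 listed symbols, 20 of complement and 19 of coagulation and fibrinolysis, out of 25512 gene names on the array. They had 82 of its 46883 probes, 44 for complement and 38 for coagulation. All rats were male Sprague Dawley, an outbred laboratory strain, with a labelled weight between 180 and 200 g whose time point is not given. High-fat rats ate a 60% fat diet for 12 weeks, and control rats ate a normal diet for 12 weeks. No allele, transgene or drug is named for either group. The labels give 4 replicates per diet and do not say that each came from its own animal, so a p-value here covers only the variation among these 8 samples, part of which may be technical.

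Complement is a chain of plasma proteins that tags microbes and dying cells and can pierce membranes. It starts from the classical, lectin or alternative route, and all routes meet at the cleavage of C3. Coagulation is a second chain of plasma proteases, which ends when thrombin cuts fibrinogen into fibrin, and it is balanced by anticoagulant proteins and by plasmin, which dissolves the clot. Hepatocytes make most of these proteins, and several of them are acute-phase proteins whose transcripts respond to interleukin-6. A few have other main sources, such as tissue factor (F3) on cells outside the blood, factor VIII (F8) in sinusoidal endothelial cells, and properdin (Cfp) in white blood cells.

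Differences between the diets were small in both systems. Every member was measurable, and no member was called different between diets by limma at an adjusted p of 0.05 (Benjamini-Hochberg, over every probe tested). The count was 0 of 20 complement genes, 0 of 19 coagulation genes and 0 of the 82 probes, against 163 of all 18587 tested genes (0.877%) and 0.907% of all tested probes. At an unadjusted p under 0.05, 3 complement genes (C8g, C4bpa and C4bpb) and 2 coagulation genes (F11 and F8) passed, where 15.6% of all tested genes did. Of the 82 member probes 10 passed, beside 15.5% of all tested probes, so neither share stood apart from the background. The 95% interval of the log2 difference lay within 2-fold in either direction for 20 of 20 complement genes and for 14 of 19 coagulation genes, and for 73.4% of all tested genes. It lay within 1.5-fold for 12 complement genes, 9 coagulation genes and 36.6% of all tested genes.

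Values are log2 processed intensities of an array, with 0 set, for each array, at the 75th percentile of those probes that were clearly brighter than background on all 8, so a step of 1 is 2-fold. A difference is the high-fat mean minus the control mean. A gene stands for its brightest tested probe, and levels of different genes are not compared, because probes differ in brightness. The tissue label was checked against C3, Fgb and F2, and against 9 hepatocyte markers such as Alb and Ttr: all were above background on every array, and none of the 9 markers was called. Their summed level was between 9.23 and 9.60 in controls and between 9.26 and 9.61 in high-fat livers. In bulk liver, fewer cells of a type and less RNA per cell cannot be told apart.

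**Figure D1:**
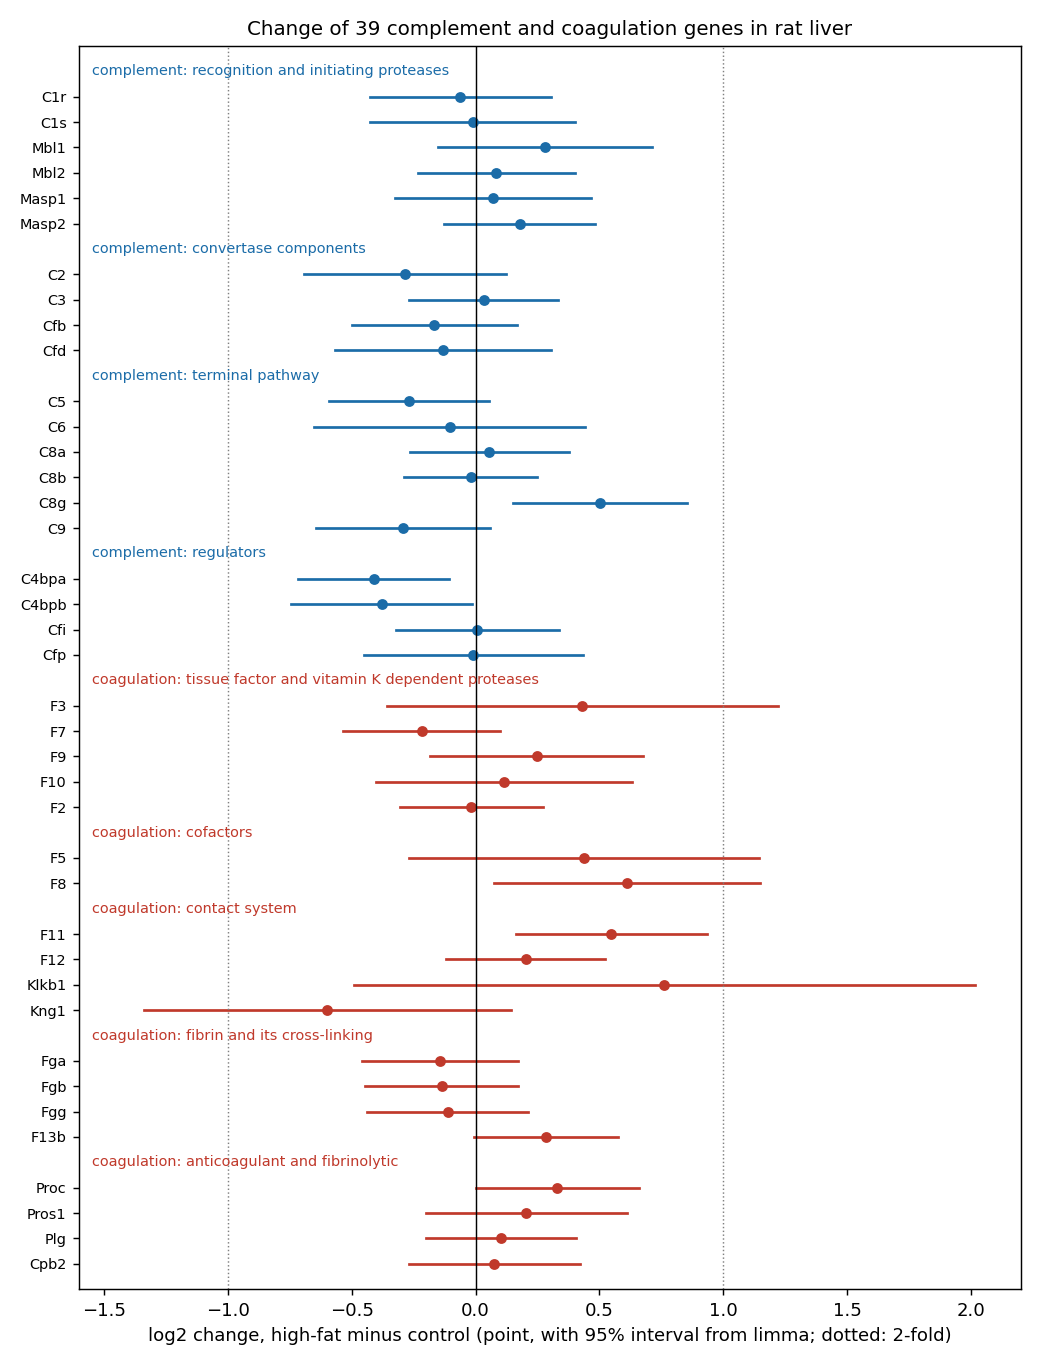
Log2 difference, high-fat minus control, for the 39 genes in order of role, with the 95% interval from limma (n = 4 per diet); blue marks complement, red marks coagulation, and the dotted lines mark 2-fold. All 20 complement intervals stay inside the dotted lines, while those of F3, F5, F8, Klkb1 and Kng1 cross one of them.

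Control replicate 4 stood apart on the brightest probes of these genes. There it was the lowest of the 4 controls for 15 of 20 complement genes and for 11 of 19 coagulation genes. It was the lowest control for 24.2% of all tested genes. On most other probes of the members control replicate 1 was the lowest control, as on the second probes of C4bpa (4.37) and C4bpb (2.61). On those of C8g and C9 it was control replicate 4, at 3.24 and 4.62. Without control replicate 4 the median complement difference moved from -0.016 to -0.097, with 4 positive and 16 negative values in place of 8 and 12. The median coagulation difference moved from 0.20 to 0.14, with 13 positive and 6 negative values in both. No member was called without it. The arrays otherwise had 50.4% to 71.9% of their probes above background, with control replicate 1 (50.4%) and high-fat replicate 1 (56.3%) the dimmest, and no spot was saturated. All 8 arrays were on 1 slide, replicates 1 and 2 of both diets in its first row and replicates 3 and 4 in its second.

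The 60-base probes of the genes on which the results turn are printed here as the files give them, 5′ to 3′. They belong to the terminal pathway gene C8g, both chains of C4b-binding protein, factor XI, prekallikrein, protein C and factor VII. For C8g, F11 and Proc it is the brightest probe, to which the levels below refer. For C4bpa, C4bpb and Klkb1 it is the second probe, and for F7 both are shown. Each of them holds at least 1 reading frame with no stop codon.
C8g: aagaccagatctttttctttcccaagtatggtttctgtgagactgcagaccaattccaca
C4bpa: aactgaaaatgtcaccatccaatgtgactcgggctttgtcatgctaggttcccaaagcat
C4bpb: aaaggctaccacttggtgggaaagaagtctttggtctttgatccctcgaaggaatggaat
F11: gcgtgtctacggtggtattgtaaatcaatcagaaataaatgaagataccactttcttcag
Klkb1: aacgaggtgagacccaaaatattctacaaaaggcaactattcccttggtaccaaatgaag
Proc: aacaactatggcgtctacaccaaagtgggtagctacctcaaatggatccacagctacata
F7, first: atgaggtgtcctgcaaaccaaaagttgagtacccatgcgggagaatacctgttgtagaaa
F7, second: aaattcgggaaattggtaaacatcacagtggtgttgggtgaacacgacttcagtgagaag

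Complement recognition was examined first, with the proteins that bind a target and the proteases they carry. On its brightest probe none of the 6 genes passed an unadjusted p of 0.05, and their median difference was 0.08. C1r and C1s, the paired proteases of the C1 complex, differed by -0.06 and -0.01. The mannose-binding lectins, which bind sugars on microbes, differed by 0.28 for Mbl1 and 0.08 for Mbl2. Their proteases Masp1 and Masp2 differed by 0.07 and 0.18. The other Masp2 probes, which carry another accession, gave 0.37 and 0.35, with overlapping groups, the first at an unadjusted p of 0.046 by limma and an adjusted p of 0.317.

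Mbl1 had the largest difference of the recognition group. Its levels were 1.11, 1.62, 1.80 and 1.5 in control replicates 1 to 4 and 2.08, 1.69, 1.86 and 1.52 in high-fat replicates 1 to 4. The groups overlapped, and high-fat replicate 1 was the highest of all 8. The other probe of Mbl1 gave 0.40, but the 2 probes are nearly 1 measurement, since they share the 49 bases in capitals here, shown because agreement between such probes is no second reading of the gene.
Mbl1, first: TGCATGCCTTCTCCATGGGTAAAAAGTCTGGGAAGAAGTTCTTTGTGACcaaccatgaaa
Mbl1, second: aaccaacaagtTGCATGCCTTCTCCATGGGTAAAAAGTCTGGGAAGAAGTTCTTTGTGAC

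The convertase genes encode the enzyme complexes that cut C3 and C5. C3, on which all routes converge, had levels of 7.05, 6.72, 6.86 and 6.60 in control replicates 1 to 4 and 6.90, 6.86, 6.79 and 6.82 in high-fat replicates 1 to 4. The high-fat values lay inside the control range. The difference was 0.03, with a 95% interval from -0.27 to 0.33, and it turned to -0.04 without control replicate 4. Its second probe gave -0.08. Cfb, the protease of the alternative convertase, differed by -0.17, and C2, its counterpart in the classical and lectin routes, by -0.28. The other C2 probes, which share 12 bases, gave -0.40 and -0.29 with overlapping groups. The first of them had an unadjusted p of 0.048 by limma and an adjusted p of 0.319. Cfd, which cuts factor B and is also known as the fat-cell protease adipsin, differed by -0.13, with overlapping groups. Of the adipocyte markers, Adipoq, Lep and Retn were too dim to be tested. The summed level of the 2 that were tested, Cidec and Fabp4, was between 0.07 and 0.67 in controls and between 0.90 and 1.41 in high-fat livers. That sum was mostly Cidec, whose mean was 0.36 in controls and 1.04 in high-fat livers. The Fabp4 means were -3.84 and -3.08, with overlapping groups. Which cells held the Cidec RNA was not measured, and the part of fat cells in the Cfd values was not tested.

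The terminal pathway genes encode the parts of the membrane attack complex, the pore that complement inserts into a membrane. C5, whose cleavage starts the pore, differed by -0.27, C6 by -0.11 and C9, which forms most of the pore wall, by -0.29. C8a and C8b, subunits of C8 that bind the growing pore, differed by 0.06 and -0.02 on their brightest probes, while C8g, a lipocalin attached to C8a, differed by 0.50. The other probes of C8a gave 0.29, with groups apart and an adjusted p of 0.294 by limma, and 0.45 with overlapping groups. On the last of these control replicate 1 read -2.18, where the other controls lay between -1.06 and -0.69. The other C8b probe gave 0.14 with overlapping groups, so the sign of C8b depended on the probe.

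C8g had the lowest unadjusted p of the complement genes. Its levels were 3.80, 4.16, 3.96 and 3.72 in control replicates 1 to 4 and 4.14, 4.39, 4.58 and 4.53 in high-fat replicates 1 to 4. Control replicate 2 lay just above high-fat replicate 1, and no other pair crossed. The difference was 0.50 ± 0.15 (SE), or 1.42-fold, with a 95% interval from 0.15 to 0.86 and an adjusted p of 0.179 by limma, so it was not called. The other probe of C8g gave 0.52, adjusted p 0.170, and on that probe the groups did not overlap. The probe printed above for C8g lies at chr3:3671550-3671678 on the minus strand of rn4, a span longer than the probe itself. Within the first slide row the difference was 0.29 and within the second 0.72.

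C9 was lower in most high-fat livers on both of its probes. Its levels were 5.33, 5.08, 5.0 and 4.75 in control replicates 1 to 4 and 4.76, 4.73, 4.91 and 4.59 in high-fat replicates 1 to 4. Control replicate 4 lay among the high-fat values. The difference was -0.29 with an adjusted p of 0.415 by limma, and the second probe gave -0.39, adjusted p 0.27. Without control replicate 4 the first probe gave -0.39.

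The regulators are the proteins that stop complement or hold its enzymes together. Both chains of C4b-binding protein, which blocks the classical and lectin convertases and also carries protein S, were lower in the high-fat livers, while the protease factor I (Cfi) and properdin (Cfp), which stabilises the alternative convertase, differed by 0.01 and -0.01. The C4bpa levels were 5.43, 5.50, 5.67 and 5.2 in control replicates 1 to 4 and 5.03, 5.04, 5.11 and 4.97 in high-fat replicates 1 to 4. Every high-fat value lay below every control value. C4bpa was the only complement gene whose groups did not overlap on its brightest probe, where 11.1% of all tested genes had groups apart and 6.24% of all had them apart with the high-fat livers lower. The difference was -0.41 ± 0.13 (SE), a 1.33-fold lower level, with a 95% interval from -0.72 to -0.11 and an adjusted p of 0.199 by limma.

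The second chain followed closely. C4bpb levels were 5.30, 5.52, 5.51 and 4.93 in control replicates 1 to 4 and 5.04, 4.95, 4.84 and 4.91 in high-fat replicates 1 to 4. The low control was again replicate 4, and without it the differences were -0.49 for C4bpa and -0.51 for C4bpb, with adjusted p 0.158 and 0.157. With all arrays C4bpb differed by -0.38, adjusted p 0.307. The second probes gave -0.39 for C4bpa and -0.28 for C4bpb. Both genes kept their sign within each slide row, at -0.43 and -0.40 for C4bpa and at -0.42 and -0.34 for C4bpb. The brightest C4bpa probe lies at chr13:43553086-43553145 and that of C4bpb at chr13:43598159-43598218, both on the minus strand of rn4, and in the current RefSeq annotation 1 coding gene lies between them.

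**Figure D2:**
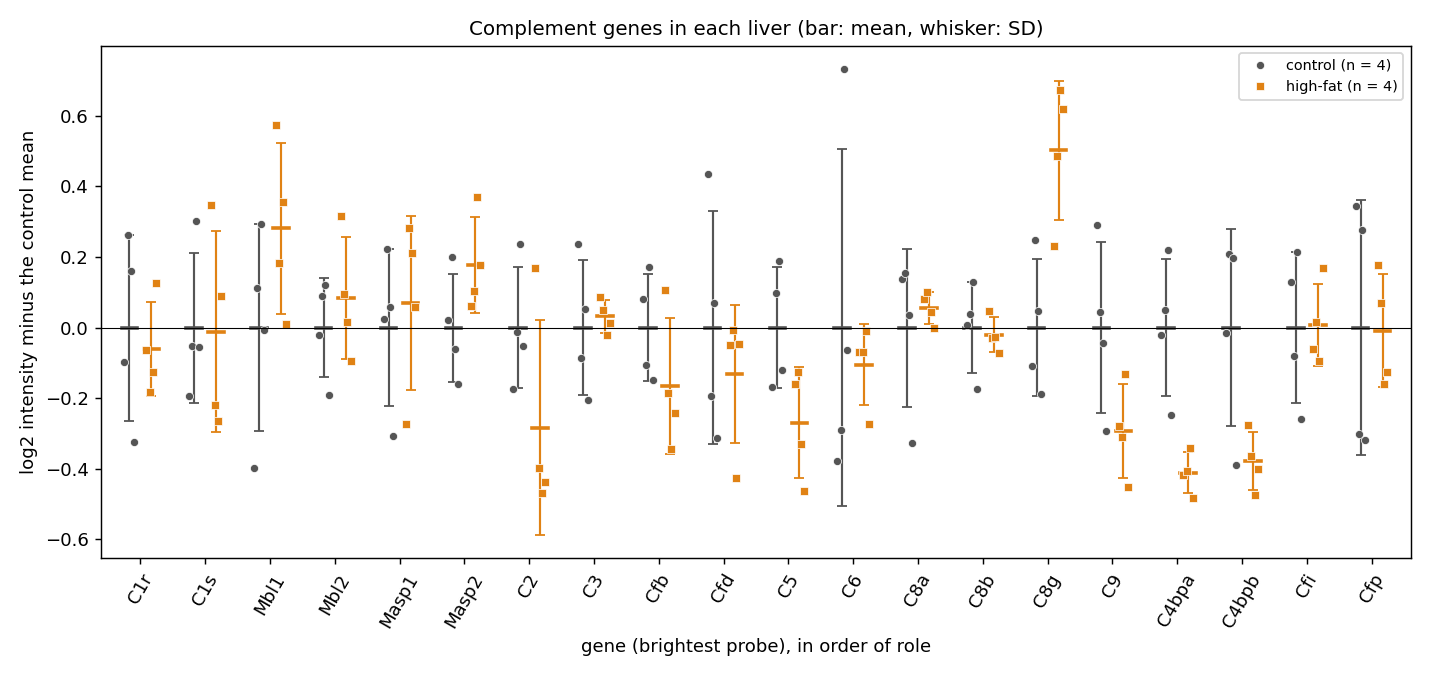
Log2 intensity of each complement gene in each liver minus its control mean, brightest probe, grey circles for 4 controls and orange squares for 4 high-fat livers, with mean (bar) and SD (whisker). The 4 high-fat values of C4bpa lie below all controls, those of C8g lie highest relative to the controls, and the control SD was the larger for 14 of the 20 genes.

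As a list, the complement genes had 8 positive and 12 negative differences and a median of -0.016, beside 50.6% positive and a median of 0.004 over all tested genes. The sign of that median was not stable. The median log2 change of complement members was 0.059 without control replicate 3 and 0.0019 without high-fat replicate 3. The control SD was larger than the high-fat SD for 14 of 20 complement genes and for 13 of 19 coagulation genes, beside 52.1% of all tested genes.

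Coagulation starts where tissue factor meets factor VII. F3 encodes tissue factor. Its levels were -3.78, -4.16, -4.69 and -4.40 in control replicates 1 to 4 and -4.82, -3.46, -3.75 and -3.28 in high-fat replicates 1 to 4. High-fat replicate 1 was the lowest of all 8 arrays, and the other 3 high-fat livers were the highest. The difference was 0.43 with a 95% interval from -0.36 to 1.22, at -0.17 within the first slide row and 1.03 within the second. Stellate cells and fibroblasts are among the cells known to carry tissue factor. Of 9 markers for them, 5 had positive and 4 negative differences, with a median of 0.08. Lrat and Reln were called higher on the high-fat diet, but Lrat was above background on 0 control and 4 high-fat arrays, so it entered the test only through the group where it was high. Des differed by -0.70 with groups apart and an adjusted p of 0.127 by limma. The summed level without Lrat, a choice made after seeing the data, was between 1.32 and 1.74 in controls and between 1.82 and 2.42 in high-fat livers, and with Lrat between 1.32 and 1.74 and between 1.90 and 2.49. Both sums were mostly Col3a1 and Reln. The Col3a1 means were 0.94 in controls and 1.28 in high-fat livers, with overlapping groups. The Reln means were -1.31 and 0.03. The part of stellate cells and fibroblasts in the F3 values was not tested.

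The vitamin K dependent proteases that follow, whose members need the vitamin to bind membranes, had small differences. Prothrombin (F2), the precursor of thrombin, had levels of 6.47, 6.57, 6.49 and 6.21 in control replicates 1 to 4 and 6.43, 6.30, 6.41 and 6.51 in high-fat replicates 1 to 4. These groups overlapped, with a difference of -0.02 and a 95% interval from -0.31 to 0.27. Factor VII (F7) differed by -0.22 on its brighter probe and by 0.10 on the other, so its direction depended on the probe. Those 2 sequences, printed above, share no run of 12 or more bases. On the second probe control replicate 1 read -2.70, where the other controls lay between -1.74 and -1.52. Factor X (F10) differed by 0.12 and factor IX (F9) by 0.25, and F9 gave -0.13 within the first slide row and 0.62 within the second.

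The cofactors speed the proteases on a membrane surface. Factor V (F5), the cofactor of factor X, differed by 0.44 on one probe and 0.56 on the other, 2 probes that share 37 bases, and its brightest probe gave -0.12 within the first slide row and 0.99 within the second. Factor VIII (F8), the cofactor of factor IX, was the only member whose brightest probe was above background on fewer than 8 arrays, at 7. It had levels of -5.34, -5.57, -5.77 and -4.84 in control replicates 1 to 4 and -5.17, -4.76, -4.73 and -4.41 in high-fat replicates 1 to 4. Control replicate 4 lay among the high-fat livers. The difference was 0.61 ± 0.24 (SE), or 1.53-fold, with a 95% interval from 0.07 to 1.15 and an adjusted p of 0.268 by limma. The second probe gave 0.63. With normexp background correction the difference was 0.29. Of 9 sinusoidal endothelial markers none was called, and 4 had positive and 5 negative differences. Lyve1 and Stab2 differed by 0.96 and 0.60 with all high-fat values above the controls. Vwf differed by -0.57 with all of them below, and the groups of the other markers overlapped. The summed level of the 9 markers was between 3.54 and 4.36 in controls and between 3.95 and 4.51 in high-fat livers, and their part in the F8 values was not tested.

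The contact system starts clotting from a charged surface and also releases bradykinin from kininogen. Factor XI (F11), which activates factor IX, had levels of -0.42, -0.19, 0.18 and -0.11 in control replicates 1 to 4 and 0.57, 0.11, 0.51 and 0.47 in high-fat replicates 1 to 4. High-fat replicate 2 lay below control replicate 3, and the other 3 high-fat livers lay above all controls. The difference was 0.55 ± 0.17 (SE), or 1.46-fold, with a 95% interval from 0.16 to 0.93 and an adjusted p of 0.18 by limma. Its second probe gave 0.54, and the slide rows gave 0.64 and 0.46. The printed F11 probe lies at chr16:50295931-50295990 on the plus strand of rn4. Factor XII (F12), the first enzyme of the contact route, differed by 0.20, with the same size in both rows, 0.20 and 0.21.

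Prekallikrein (Klkb1), the neighbour of F11 on the chromosome and a related protease that factor XII activates, had the largest difference of the 39 genes, and 1 array set it. Its brightest probe read 3.44, 2.68, 2.43 and 0.52 in control replicates 1 to 4 and 3.27, 2.80, 2.68 and 3.37 in high-fat replicates 1 to 4. Control replicate 4 was far below all other arrays. The difference was 0.76 with a 95% interval from -0.49 to 2.02, and 0.18 without control replicate 4. The second probe, the one printed above, read 1.01, 1.03, 0.88 and 0.80 in controls and 1.67, 1.11, 1.24 and 1.11 in high-fat livers. On it control replicate 4 was close to the other controls, the groups did not overlap, and the difference was 0.35 with an adjusted p of 0.333 by limma.

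The member with the most negative difference was read by the kininogen probe named Kng1. In the current annotation that probe belongs to another kininogen gene, given below. It may therefore not read the kininogen that carries the contact factors. Its levels were 3.93, 5.40, 5.52 and 4.73 in control replicates 1 to 4 and 4.24, 4.25, 4.27 and 4.43 in high-fat replicates 1 to 4. The high-fat livers were close together, 3 controls lay above them, and control replicate 1 lay below. The difference was -0.60 with a 95% interval from -1.34 to 0.14 and an adjusted p of 0.431 by limma. It was -0.92 without control replicate 1 and -0.39 without control replicate 3.

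The rat has several kininogen genes, and the symbol on the array is an old one. By accession the probe named Kng1 now belongs to Kng2 in RefSeq, and the probe named Kng1l1 now belongs to Kng1. The 2 probes match at 47 of 53 aligned bases, with the longest common run of 17 bases in capitals. They are shown because RNA of one gene could bind the probe of the other. Another probe, named Kng2 on the array, is set beside them. It now belongs to Kng2l1, not to the gene now named Kng2.
Kng1: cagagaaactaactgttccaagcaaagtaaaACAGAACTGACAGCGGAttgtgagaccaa
Kng1l1: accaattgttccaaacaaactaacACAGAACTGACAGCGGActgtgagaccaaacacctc
Kng2: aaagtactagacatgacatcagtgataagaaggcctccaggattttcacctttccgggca
The Kng1l1 probe read 3.17, 4.74, 5.01 and 3.89 in control replicates 1 to 4 and 3.27, 3.17, 3.39 and 3.4 in high-fat replicates 1 to 4, a difference of -0.89. That Kng2 probe, the brightest of its name, differed by -0.51. Replicates 2 and 3 were the 2 highest controls on all 3 of these kininogen readings. Because of the matching bases, the Kng1 and Kng1l1 values are uncertain as readings of 1 gene each.

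Fibrinogen is the protein that becomes the clot, and its chains differed little between diets. Fgb, the beta chain, read 6.82, 6.59, 6.61 and 6.34 in control replicates 1 to 4 and 6.53, 6.38, 6.52 and 6.39 in high-fat replicates 1 to 4. Fga, the alpha chain, read 7.18, 7.09, 7.05 and 6.69 in controls and 6.93, 6.86, 6.82 and 6.83 in high-fat livers. Fgg, the gamma chain, read 6.52, 6.29, 6.40 and 6.03 in controls and 6.34, 6.15, 6.19 and 6.11 in high-fat livers. On these brightest probes control replicate 1 was the highest control of each chain and replicate 4 the lowest, and the groups overlapped. That order depended on the probe. Control replicate 1 was the lowest control on the second probes of Fgb (2.39) and Fgg (5.87), and on both other Fga probes (6.16 and 0.46).

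On the brightest probes the differences were -0.14 for Fga, -0.14 for Fgb and -0.11 for Fgg. Without control replicate 4 they were -0.25, -0.22 and -0.21. On these probes their 95% intervals, and that of F13b, lay within 1.5-fold in both directions. The second probe of Fgb gave -0.33, with a wider interval from -1.05 to 0.40. F13b, the carrier subunit of the enzyme that cross-links fibrin, differed by 0.28, with levels of 3.02, 3.11, 3.31 and 2.99 in control replicates 1 to 4 and 3.28, 3.32, 3.52 and 3.43 in high-fat replicates 1 to 4. Only control replicate 3 reached the high-fat range, and the second F13b probe gave 0.52 with overlapping groups. The other 2 probes of Fga carry another transcript accession than the brightest. They gave -0.05 and, on the dimmest, 0.16 with a 95% interval from -0.63 to 0.95. The sign of that small difference thus varied between probes.

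The fibrinogen genes lie side by side in 1 cluster, and the chains are known as acute-phase genes, so the 250 bases before their starts are printed, from RefSeq on GRCr8, with those of C4bpa and C4bpb. Capitals mark 2 motifs searched on both strands, CTGGGAA, the core of the interleukin-6 response element, and TTNNGCAA, a C/EBP type motif.
Fga, chr2:170671919-170672168, plus strand: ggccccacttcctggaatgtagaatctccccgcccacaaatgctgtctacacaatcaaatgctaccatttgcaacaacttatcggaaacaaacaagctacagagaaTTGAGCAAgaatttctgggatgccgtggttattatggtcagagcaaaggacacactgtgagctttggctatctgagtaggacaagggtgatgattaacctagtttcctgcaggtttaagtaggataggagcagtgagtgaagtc
Fgb, chr2:170700876-170701125, minus strand: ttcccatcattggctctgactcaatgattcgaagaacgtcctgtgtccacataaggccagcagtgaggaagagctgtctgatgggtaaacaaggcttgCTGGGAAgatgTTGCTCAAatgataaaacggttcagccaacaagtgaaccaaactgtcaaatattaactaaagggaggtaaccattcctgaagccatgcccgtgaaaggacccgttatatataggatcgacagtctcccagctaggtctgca
Fgg, chr2:170652833-170653082, plus strand: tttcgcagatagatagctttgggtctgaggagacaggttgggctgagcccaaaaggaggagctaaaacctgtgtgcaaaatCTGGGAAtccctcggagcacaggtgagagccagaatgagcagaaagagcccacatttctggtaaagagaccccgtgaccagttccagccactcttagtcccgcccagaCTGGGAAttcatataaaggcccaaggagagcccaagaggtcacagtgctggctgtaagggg
C4bpa, chr13:44663472-44663721, minus strand: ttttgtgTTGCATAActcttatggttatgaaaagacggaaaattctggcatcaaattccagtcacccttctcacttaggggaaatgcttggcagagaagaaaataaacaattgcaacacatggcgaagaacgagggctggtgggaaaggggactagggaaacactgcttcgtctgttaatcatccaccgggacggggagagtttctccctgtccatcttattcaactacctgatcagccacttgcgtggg
C4bpb, chr13:44683782-44684031, minus strand: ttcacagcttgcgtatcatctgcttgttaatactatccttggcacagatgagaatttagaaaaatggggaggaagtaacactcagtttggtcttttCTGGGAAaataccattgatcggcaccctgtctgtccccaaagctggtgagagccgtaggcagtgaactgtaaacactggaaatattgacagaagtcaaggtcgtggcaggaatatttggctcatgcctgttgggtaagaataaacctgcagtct

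RefSeq windows were found by current symbol for 30 of the 39 members, 14 of complement and 16 of coagulation. The Kng1 window is therefore that of the gene now named Kng1, not of the gene to which the member probe now belongs. CTGGGAA stood in 8 of these 30 (26.7%), and in 9.33% of 27457 windows of the same length. The 8 were C1r, C3, C4bpb, F9, Fgb, Fgg, Kng1 and Plg. TTNNGCAA stood in 11 of 30 (36.7%), among them C3, C4bpa, Fga, Fgb and Kng1, and in 9.2% of all windows. TTCNNNGAA, a STAT motif whose last bases can overlap CTGGGAA, as they do in C4bpb, stood in 6 (C4bpb, C8a, F9, Fga, Fgb and Pros1), and in 7.52% of all windows. All 3 motifs were searched on both strands. A match is only a run of letters, and whether a factor bound there was not measured.

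The anticoagulant and fibrinolytic genes all had positive differences, none of them called. Protein C (Proc), the protease that shuts down factors V and VIII, had levels of 3.69, 3.93, 4.07 and 3.91 in control replicates 1 to 4 and 4.5, 4.08, 4.15 and 4.20 in high-fat replicates 1 to 4. Every high-fat value lay above every control value, narrowly for high-fat replicate 2, and Proc was the only coagulation gene whose groups did not overlap on its brightest probe. The share of all tested genes with groups apart and higher on the high-fat diet was 4.88%. The difference was 0.33 ± 0.15 (SE), or 1.26-fold, with an adjusted p of 0.323 by limma. The second Proc probe gave 0.41 with overlapping groups, a value that leaned on control replicate 1. That array read -0.10 there, where the other controls lay between 0.81 and 1.21 and the high-fat livers between 0.93 and 1.51. Protein S (Pros1), the cofactor of protein C and the partner of C4b-binding protein in plasma, differed by 0.21. The Pros1 difference was -0.095 within the first slide row and 0.51 within the second. Plasminogen (Plg), the precursor of plasmin, differed by 0.10, and Cpb2, which slows fibrin breakdown, by 0.08.

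**Figure D3:**
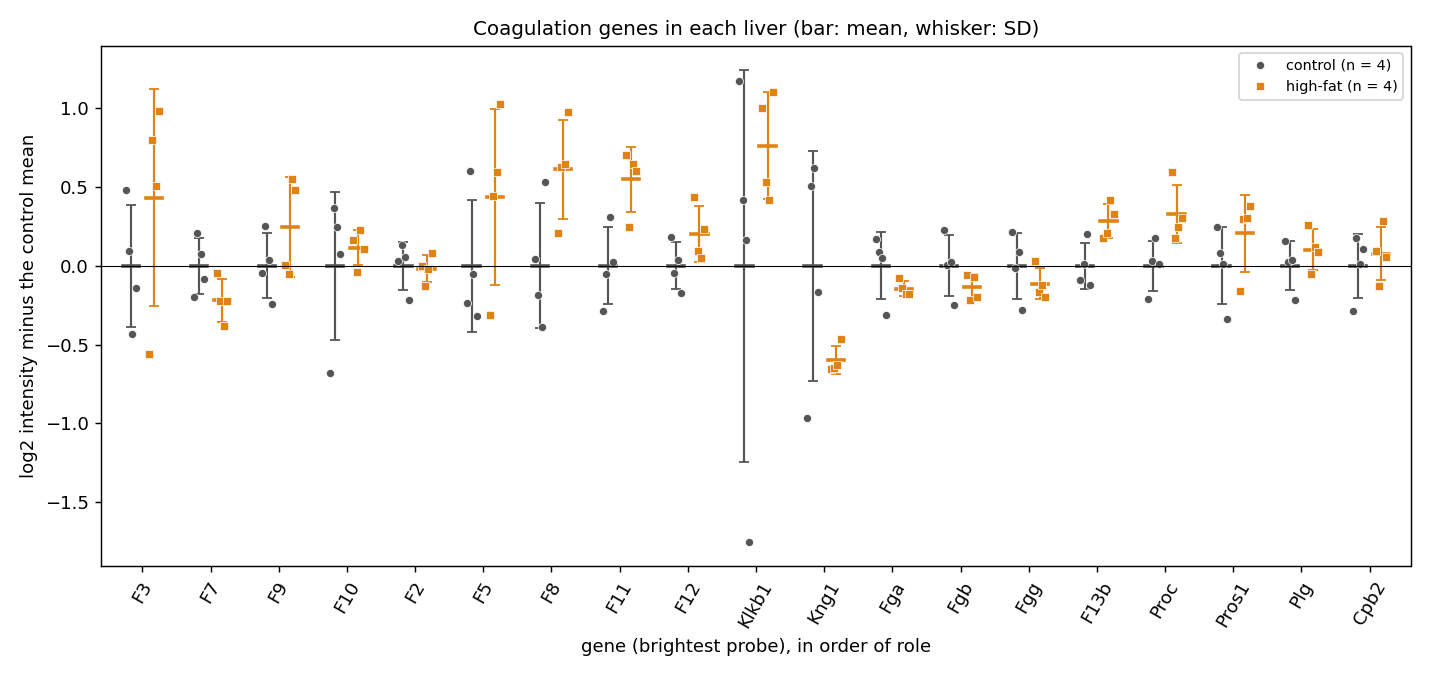
Log2 intensity of each coagulation gene in each liver minus its control mean, brightest probe, with symbols as for complement (n = 4 per diet). The Klkb1 control replicate 4 lies far below the rest, the 4 high-fat Kng1 values lie close together below 3 of the 4 controls, and the fibrinogen chains lie near 0 in both diets.

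As a list, the coagulation genes had 13 positive and 6 negative differences and a median of 0.20. That count was uneven between the rows of the slide. Within the first row the median was -0.095, with 8 positive and 11 negative values, and within the second it was 0.19, with 14 and 5. F3, F5, F9, Klkb1 and Pros1 were below 0 in the first row and at 0.51 or above in the second. The median was 0.12 without high-fat replicate 1. The 6 negative genes were the 3 fibrinogen chains, Kng1, F7 and F2.

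**Figure D4:**
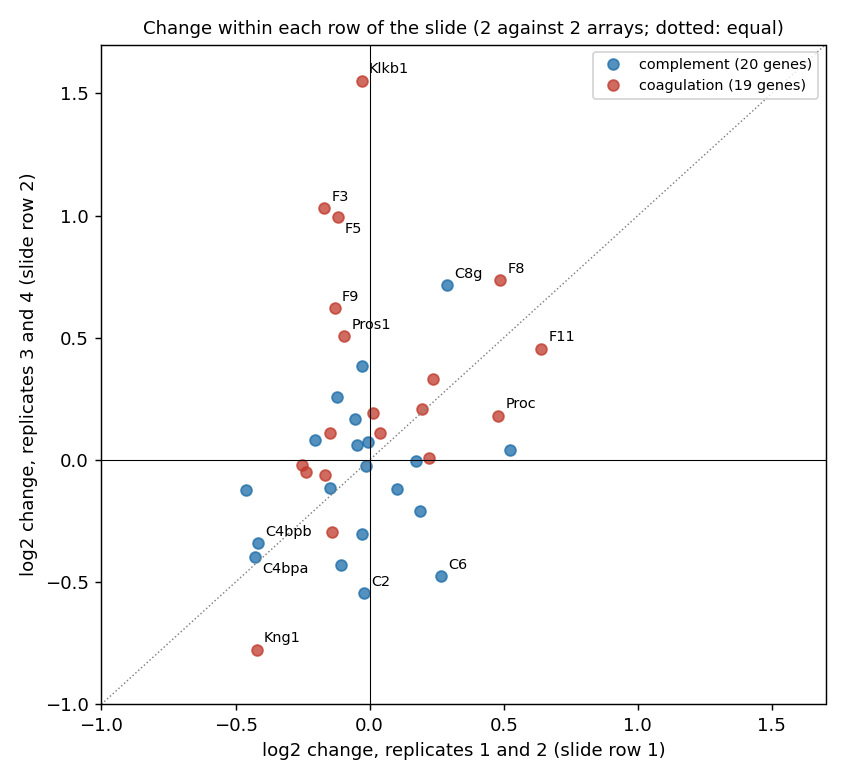
Log2 difference within slide row 1 (replicates 1 and 2, horizontal) against row 2 (replicates 3 and 4, vertical), each from 2 high-fat and 2 control arrays, for 20 complement genes (blue) and 19 coagulation genes (red). F8, F11 and C8g lie above 0 in both rows and C4bpa, C4bpb and Kng1 below 0 in both, while Klkb1, F3, F5, F9 and Pros1 lie left of 0 and high.

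Different probes of a gene were compared as a second reading within the same RNA. Of the 37 members with several tested probes, 28 (75.7%) had differences of 1 sign on all of them, 14 of 20 in complement and 14 of 17 in coagulation, beside 73.1% of all 10899 genes with several probes. The largest spread between probes of a member was 0.41, in Klkb1. The probes of C8g, C4bpa, F8, F10, F11 and Cfd differed by 0.02 or less. Only Mbl1, F5 and C2 had probes that share 12 or more bases, so most such pairs read separate stretches.

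**Figure D5:**
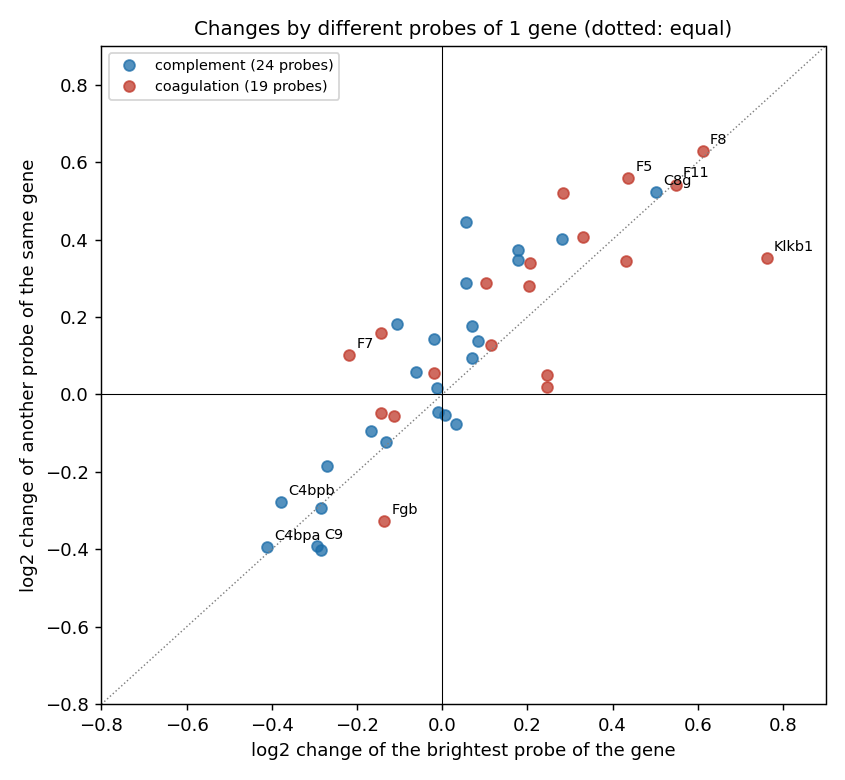
Log2 difference of the brightest probe of a gene (horizontal) against that of each other probe of the same gene (vertical), for 24 complement and 19 coagulation probes; the dotted line marks equal values. The C8g, F8 and F11 points lie near the line at 0.50 or above, those of C4bpa and C9 near it below 0, F7 lies on opposite sides of 0, and Klkb1 lies below the line.

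Neighbouring genes were also compared. Of 8 pairs of members that lie next to each other or 1 coding gene apart in RefSeq, 6 had differences of 1 sign. They were C4bpa with C4bpb, Klkb1 with F11, Fgg with Fga, Fga with Fgb, C2 with Cfb, and C1r with C1s. F10 with F7, and C8b with C8a, had opposite signs on their brightest probes. In both pairs the sign depended on the probe: the other probes of F7, F10, C8b and C8a all gave positive differences, and quantile normalization gave a log2 change of C8b of 0.03.

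Other genes of both pathways came from fixed lists. Of 33 related complement genes, 25 were on the array and 22 were tested, 9 with a positive and 13 with a negative difference, and limma called none, with 3 at an unadjusted p under 0.05 (13.6%). Colec11, a collectin that recognises sugars for the lectin route, read 1.26, 1.04, 1.22 and 0.73 in control replicates 1 to 4 and 1.99, 1.7, 1.69 and 1.74 in high-fat replicates 1 to 4. All high-fat values lay above all controls, with a difference of 0.72 and an adjusted p of 0.078. Its partner Colec10 differed by 0.34, with overlapping groups.

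The receptors C5ar1, which binds C5a, and Vsig4, a macrophage receptor for C3 fragments, differed by -0.85 and -0.78, with adjusted p 0.122 and 0.178 by limma, and the groups of each did not overlap. Vsig4 is itself a Kupffer cell marker. Of 12 tested Kupffer cell and macrophage markers, 11 had negative differences and none was called, and their summed level was between 5.68 and 6.15 in controls and between 5.19 and 5.77 in high-fat livers. The part of these cells in both receptor values was not tested.

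Of 39 related coagulation genes, 37 were on the array and 36 were tested, 16 with a positive and 20 with a negative difference, and limma called none, with 11 at an unadjusted p under 0.05 (30.6%, beside 15.6% of all tested genes). Procr, the receptor that presents protein C on endothelium, read -2.34, -2.80, -2.57 and -3.01 in control replicates 1 to 4 and -3.50, -3.50, -3.63 and -4.11 in high-fat replicates 1 to 4. All high-fat values lay below all controls, with a difference of -1.0 and an adjusted p of 0.064, on the opposite side of 0 from its ligand Proc. Gas6, a relative of protein S, differed by -1.18, Vwf, the carrier of factor VIII, by -0.57, and the inhibitor Tfpi2 by 0.69 on a probe above background on 6 of 8 arrays. Their adjusted p were 0.149, 0.167 and 0.154.

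Of 22 regulators of these genes in hepatocytes, Il6 itself was too dim to be tested, and limma called none of the other 21, with 1 at an unadjusted p under 0.05. Hnf4a, a hepatocyte transcription factor, differed by -0.39, the interleukin-6 receptor subunit Il6st by 0.32 and the acute-phase factor Cebpd by -0.24, all with overlapping groups. Red cell markers were summed for blood in the tissue. None of the 4 tested was called, 3 had positive differences, and their summed level was between 4.80 and 6.17 in controls and between 6.16 and 6.84 in high-fat livers. The part of blood in any member's values was not tested.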

How the data were processed

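Total RNA was copied into Cy3-labelled cRNA from an oligo-dT primer, per the labels' protocols. Per the file headers, spot intensity values came from Agilent Feature Extraction 10.7.3.1, with background already subtracted. The authors' deposited table holds log2 values for 46883 probes; it correlated at 0.999 or more with scanner values scaled to the 75th percentile, which showed a log2 scale that rises with brightness, without centring of probes, and it served as an alternative. Its column medians were between -3.21 and -3.10. Control and outlier spots were left out, spots of a probe were averaged, and log2 processed signal was scaled to each array's 75th percentile over probes above background on all 8. Probes clearly brighter than background on 4 or more of the 8 arrays, 31535 in all (18587 genes), were tested with limma 3.58.1 in R 4.3.3. Probe coordinates are the files', on rn4. The script was tested on simulated data. The members and lists were chosen with earlier results of these data known. All members are named; of each related list, up to 4 genes with the smallest p, and the kininogens, named after their values were seen. One gene of these lists is not reported here.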

Additional observations from a re-analysis of the deposited data

Results flagged for a closer look

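In 5 of 108 groups of 4 arrays checked, 1 array passed Dixon's 95% criterion, and chance alone flags about 1 group in 20. The criterion sets the gap to the nearest array against the range of all 4, so a small gap can pass. C2 read 2.50 in high-fat replicate 1, where the other high-fat livers lay between 1.86 and 1.94. Cfd read 1.04 in high-fat replicate 3, where the others lay between 1.41 and 1.45. Kng1 read 4.43 in high-fat replicate 4, where the others lay between 4.24 and 4.27. Pros1 read 1.19 in high-fat replicate 1, where the others lay between 1.64 and 1.73. Vwf read -0.64 in control replicate 2, where the others lay between -0.805 and -0.798.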

How the results depend on the processing

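No complement or coagulation member was called under any alternative that had a test, and the lowest adjusted p there was 0.099 by limma. The alternatives gave 935 member values. Those within a slide row were differences only, without a test. Of the 935 values, 907 moved by less than the spread between replicates, 28 by more, and 64 changed sign. The median coagulation difference was -0.095 within slide row 1. The probes called and the genes called over the whole array moved far more. They numbered 286 and 163, and the genes 253 with normexp, while both numbered 10 and 5 with no filter on dim probes, 529 and 331 with probes above background on all 8 arrays, 545 and 335 with a trended and robust eBayes, 171 and 98 with the slide row as a block, 25 and 14 without the 2 dimmest arrays, and 836 and 504 at an adjusted p under 0.1. Leaving out 1 array gave 23 to 154 probes and 16 to 89 genes. Related complement genes had 1 call with normexp, with the filter on all 8 arrays, with trended eBayes and at 0.1, and related coagulation genes had 1 call with each of the last 3 of these. Normexp lowered the share of genes with a positive difference from 50.6% to 40.0%, while complement kept 8 positive and 12 negative members and coagulation 13 and 6. Same-numbered replicates of both diets deviated together in only some pairs (correlations -0.12, 0.26, 0.23 and 0.01), so the numbers were not taken as pairing; with the replicate block 1 probe and 1 gene were called, and no member. The causes were not tested. With 4 arrays per diet on 1 slide, the 95% intervals of 5 coagulation members (F3, F5, F8, Klkb1 and Kng1) reach past 2-fold, and F8 was near background.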
